A study of Homo sapiens with 8 samples.

Results

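The 111 genes described here had lower exon counts, relative to the library total, in both MetaICM libraries than in every other library of the series. They were chosen by their measured levels, from 28265 RefSeq genes: each had at least 2 CPM (a gene's count per 1000000 counts of its library) in all 6 libraries of young, ICM_3days and ICM_6days cells, and the lowest of these 6 CPM was at least 1.5 times the higher of the 2 MetaICM CPM. Of the 11976 genes that met the first condition, called eligible genes here, 1703 had both MetaICM libraries below all 6 others (14.2%) and 1756 had both above (14.7%), so genes at the bottom and at the top in MetaICM were about equally frequent and the 111 are those with the widest gap at the bottom. Since the rule used these values, every fold to MetaICM is a description and carries no test. The ratio of the lowest of the 6 CPM to the higher MetaICM CPM is called the margin.

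IMR90 is a line of diploid fibroblasts from human fetal lung with a limited life span in culture. In factory RNA-Seq the chromatin that is not held by transcription factories, the sites in the nucleus where RNA polymerase II works, is washed away and the RNA that remains bound, rich in nascent transcripts, is sequenced. The 8 libraries comprised 2 from young IMR90 (wild type and of low passage, without a statement of whether they received the solvent), 2 from IMR90 kept for 3 days in inflachromene (ICM, a small molecule that binds HMGB proteins), 2 from cells kept in it for 6 days and 2 labelled MetaICM. All were of low passage. The series text says only that the last group was treated with MetaICM, and neither it nor the paper's text says what that treatment was or how long it lasted, so no time or dose can be set beside it. All groups share the 1 cell line, and the labels do not state that the 2 libraries of a group came from separate cultures, so that the p-values below measure only the spread between libraries.

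Several of the 111 genes belong to pathways with well known roles in fibroblasts. Prostaglandins are made from arachidonic acid, which phospholipase A2 frees from membranes and which cyclooxygenases convert, and together with chemokines they carry inflammatory signals between cells. Immediate early genes such as FOS and the NR4A receptors are transcribed within minutes of a growth or stress signal, without new protein synthesis. Retinoic acid acts through nuclear receptors that switch on RARB and the enzymes that limit retinoid supply, and NRF2 drives genes that detoxify reactive compounds and keep up glutathione.

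The members with the largest margins were GPC5, TNFAIP6, PTGS2, CYP1B1, LXN and NR4A2. The promoters of the 4 members with the largest margins among those that have an entry in the RefSeq promoter table are shown, because these members had the widest gap between MetaICM and the rest. Each run gives the 250 bases upstream of the RefSeq start on GRCh38.p14, 5′ to 3′ on the gene's strand. Capitals mark matches, on either strand, to TATAAA (the TATA box), CCAAT (the CCAAT box), GGGCGG (the GC box) or TGACTCA (the site of AP-1, the dimer that FOS forms with JUN proteins). The windows lie at chr13:91398371-91398620 (forward strand) for GPC5, chr2:151357342-151357591 (forward strand) for TNFAIP6, chr1:186680424-186680673 (reverse strand) for PTGS2 and chr3:158672649-158672898 (reverse strand) for LXN.
GPC5: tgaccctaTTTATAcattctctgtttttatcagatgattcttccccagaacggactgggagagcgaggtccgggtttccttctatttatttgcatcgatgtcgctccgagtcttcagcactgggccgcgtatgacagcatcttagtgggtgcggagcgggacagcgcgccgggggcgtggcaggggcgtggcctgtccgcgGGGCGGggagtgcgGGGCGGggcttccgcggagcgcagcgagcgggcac
TNFAIP6: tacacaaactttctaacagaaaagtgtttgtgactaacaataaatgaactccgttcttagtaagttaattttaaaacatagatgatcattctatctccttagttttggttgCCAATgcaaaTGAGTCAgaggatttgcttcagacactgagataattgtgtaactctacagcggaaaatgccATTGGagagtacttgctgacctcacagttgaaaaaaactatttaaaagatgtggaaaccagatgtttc
PTGS2: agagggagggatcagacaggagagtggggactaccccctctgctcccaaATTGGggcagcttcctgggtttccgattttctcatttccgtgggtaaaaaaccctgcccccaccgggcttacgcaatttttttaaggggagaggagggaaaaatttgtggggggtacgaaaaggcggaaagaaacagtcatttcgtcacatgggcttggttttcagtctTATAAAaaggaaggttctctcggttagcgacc
LXN: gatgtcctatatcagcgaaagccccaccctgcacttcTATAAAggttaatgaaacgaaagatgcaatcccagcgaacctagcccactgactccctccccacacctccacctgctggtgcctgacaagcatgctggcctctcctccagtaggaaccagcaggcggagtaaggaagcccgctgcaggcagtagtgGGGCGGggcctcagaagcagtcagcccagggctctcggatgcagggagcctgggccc
TNFAIP6 holds an AP-1 match beside a CCAAT box, PTGS2 a TATA box close to its start, and GPC5 and LXN GC boxes near the start with a TATA match farther upstream.

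Over all 72 members with a promoter entry, 12 held TATAAA (16.7%), against 5.32% of the 9396 promoters of eligible genes and 11.1% of all 27305 promoters in the table. The AP-1 motif TGACTCA was found in 7 (9.72%, against 2.50% of eligible and 4.16% of all promoters), those of TNFAIP6, CXCL8, POSTN, PDE4D, TMEM156, LURAP1L-AS1 and SOX5-AS1. GGGCGG was found in 27 (37.5%, against 67.2% and 42.3%), CCAAT in 23 (31.9%, against 35.2% and 33.0%) and TTTGAA, the core of the sites of TCF and LEF factors, in 13 (18.1%, against 8.64% and 13.6%). Matches to TGACGTCA (the cAMP response element) stood in 3 (4.17%, against 3.03% and 1.77%), to CACGTG (the E-box) in 4 (5.56%, against 8.77% and 6.49%), to CATTCC (the core site of TEAD factors) in 5 (6.94%, against 9.38% and 11.9%) and to TGACNNNGC (the core of the antioxidant response element that NRF2 binds) in 10 (13.9%, against 12.2% and 11.03%). TGACTCA can be part of a TGACNNNGC match. The other 39 members have no entry in the table, and a match describes letters, not binding.

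**Figure D1:**
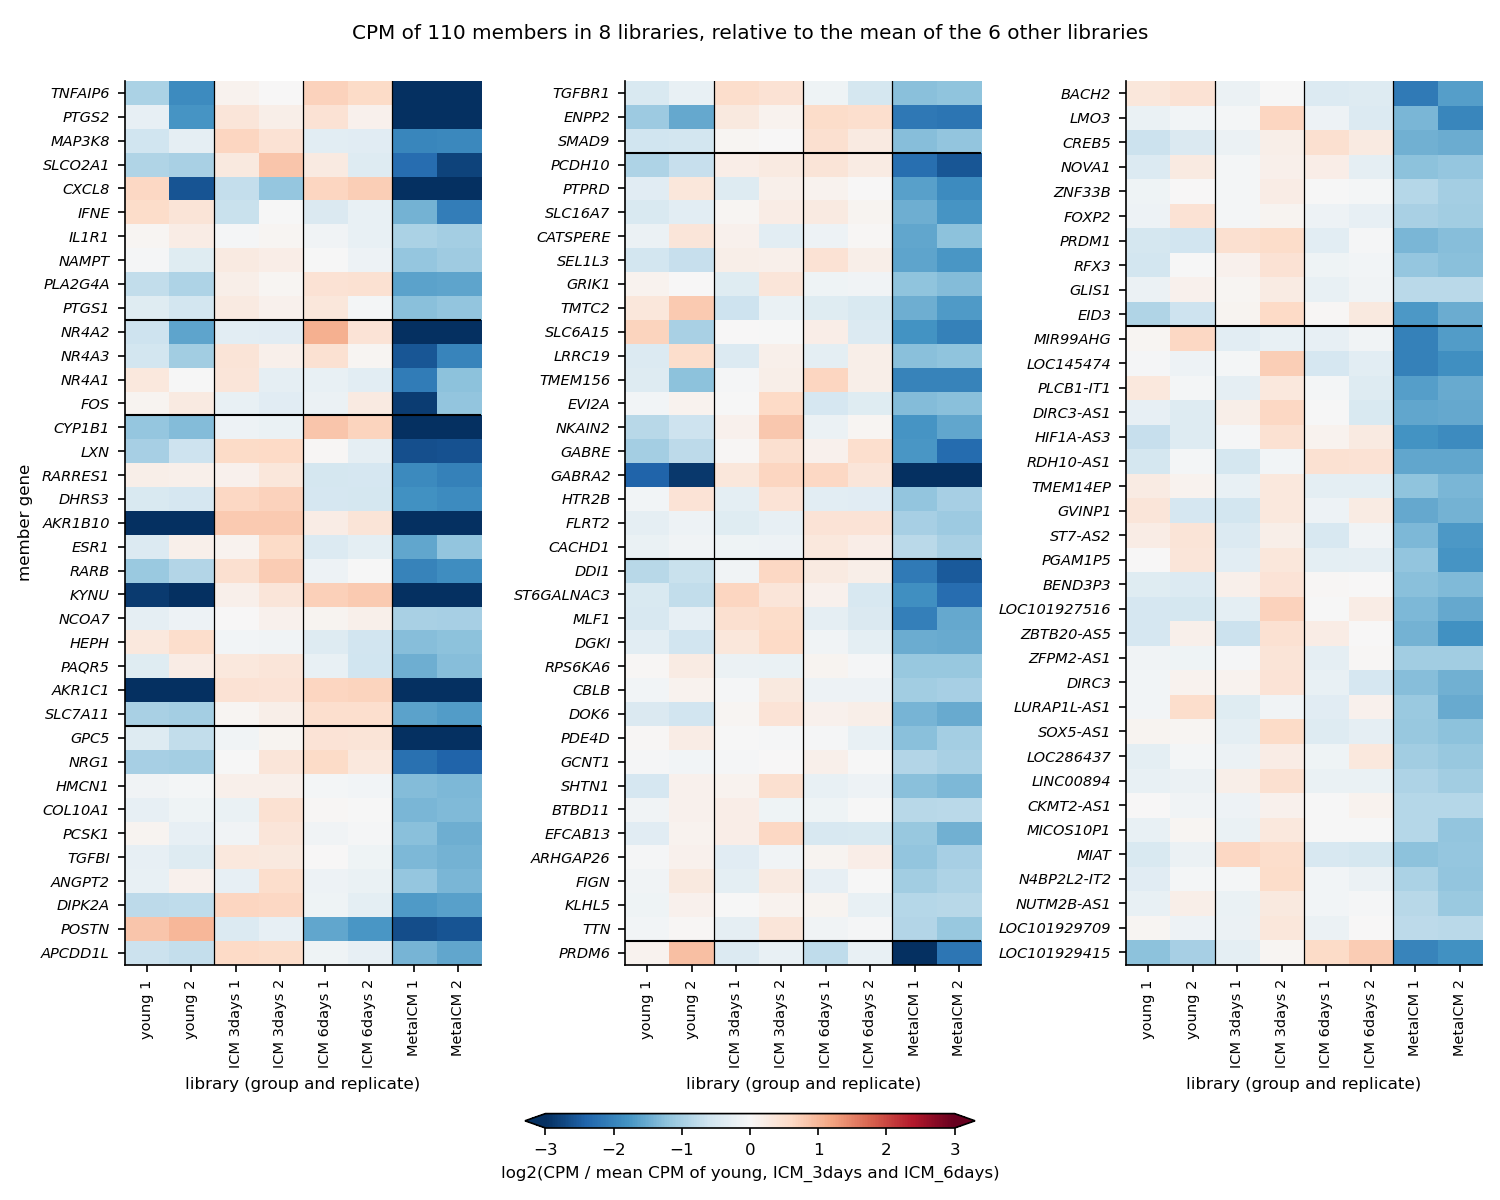
Each row is 1 of 110 members and each column 1 of the 8 libraries, with colour showing log2 of the CPM over the member's mean CPM in the 6 young, ICM_3days and ICM_6days libraries (ends of the scale at −3 and 3). Horizontal lines part the functional groups, in the order in which the text describes them, and within a group members run from the largest margin down. Both MetaICM columns are blue in every row, as the rule requires, while the 6 other columns differ between rows, from AKR1B10 with low young columns to POSTN with low ICM_6days columns.

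The margins ran from 1.51 (EID3) to 5.36 (GPC5) with a median of 1.74, and 29 members had a margin of at least 2 and 6 a margin of at least 3. Mean CPM in young was 2.37 times that in MetaICM at the median, from 1.57 (SMAD9) to 14.3 (CXCL8). The corresponding median was 3.12 for ICM_3days and 2.52 for ICM_6days, in both with AKR1B10 as the highest (89 and 64.5). The members nearest the threshold from the inside were EID3 (1.51), SMAD9 (1.51), GLIS1 (1.51), LOC101929415 (1.51) and SLC7A11 (1.52), and the genes nearest from the outside DLGAP1-AS2 (1.496), DCLK2 (1.496), PRR5L (1.493), PELI2 (1.492) and LINC01004 (1.49). The mean over the 6 libraries ranged from 3.07 CPM (LURAP1L-AS1) to 2990 CPM (TGFBI), with 37 members under 10 CPM (33.3%, against 23.2% of eligible genes) and 16 at 100 CPM or more.

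Together the members took 0.688% and 0.672% of all counts in the young libraries, 1.14% and 1.20% in ICM_3days, 1.17% and 1.099% in ICM_6days and 0.328% and 0.318% in MetaICM. These shares rest heavily on the most abundant members, such as TGFBI with 2518 and 2298 CPM in young and 3725 and 3636 in ICM_3days. The median log2 fold change of the members against young was only 0.27 after 3 days and 0.02 after 6 days. The MetaICM libraries were close to each other for most members: in 102 of 111 they lay within 1.5 times of each other, the widest ratio being 3.18 for FOS. The young libraries were 1.5 times or more apart in 16 members, up to 9.24 times for CXCL8. The group with the highest mean was young for 25 members, ICM_3days for 53 and ICM_6days for 33, so the level that MetaICM fell short of was not the same condition from gene to gene.

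Library totals ran from 12095123 to 23166405 counts, with the MetaICM libraries at 20415790 and 23166405, and no member had fewer than 7 counts in a MetaICM library or 28 in another. Across genes, which are not independent replicates, log2 CPM correlated (Pearson's r) at 0.985 between the young libraries, 0.992 in ICM_3days, 0.995 in ICM_6days and 0.996 in MetaICM, and every pair differed by more than sampling noise. The summed CPM of 12 fibroblast markers was 35421 to 38232 in MetaICM, inside the range of 21522 to 58804 of the 6 others. That range was wide, with 58804 and 55642 in young and 21764 and 21522 in ICM_6days. FN1 gave the highest single value, 36416 CPM, and the lowest of any marker was 0.265 CPM. The sum thus says little about the weak markers. Markers of epithelial cells (7) and leukocytes (6) summed to at most 2.15 and 2.67 CPM in any library, and CD3E, a leukocyte marker, had 0 counts throughout. The 6 endothelial markers summed to 219 to 232 CPM in MetaICM against 134 to 200 in the others, and TEK gave the highest value.

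The comparisons between the other groups were not used by the rule, although it bounds all 6 CPM from below at 1.5 times the MetaICM level and so limits how far a member could fall. Each pair of groups was fitted with edgeR's quasi-likelihood test over all genes, with Benjamini-Hochberg adjusted p, and a gene was called at an adjusted p under 0.05 with an absolute log2 fold change (log2FC) over 0.6. All 111 members passed the filter on low counts in each fit. After 3 days of ICM, 34 members were higher than in young (30.6%), against 8.85% of the 15692 genes tested, and 4 were lower (3.604%, against 13.2%). The members' median log2FC was 0.27, and that of all genes tested 0.01. After 6 days, 30 members were higher (27.03%, against 13.3% of 15950 genes) and 9 lower (8.11%, against 17.2%), with a median of 0.02. From 3 to 6 days 7 members rose (6.31%, against 3.53% of 15845 genes) and 19 fell (17.1%, against 4.54%), with a median of −0.11. In all, 57 members were called in at least 1 of these 3 comparisons and 54 in none. Of the 103 calls, 41 did not hold when 1 of the 4 libraries was left out, which leaves a lone library in its group, assumed to vary like the other pair. All but 1 of these are named with the functional groups below, with the log2FC that remained. DESeq2 did not make 11 of the 103 calls, and those of named members are given as well.

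**Figure D2:**
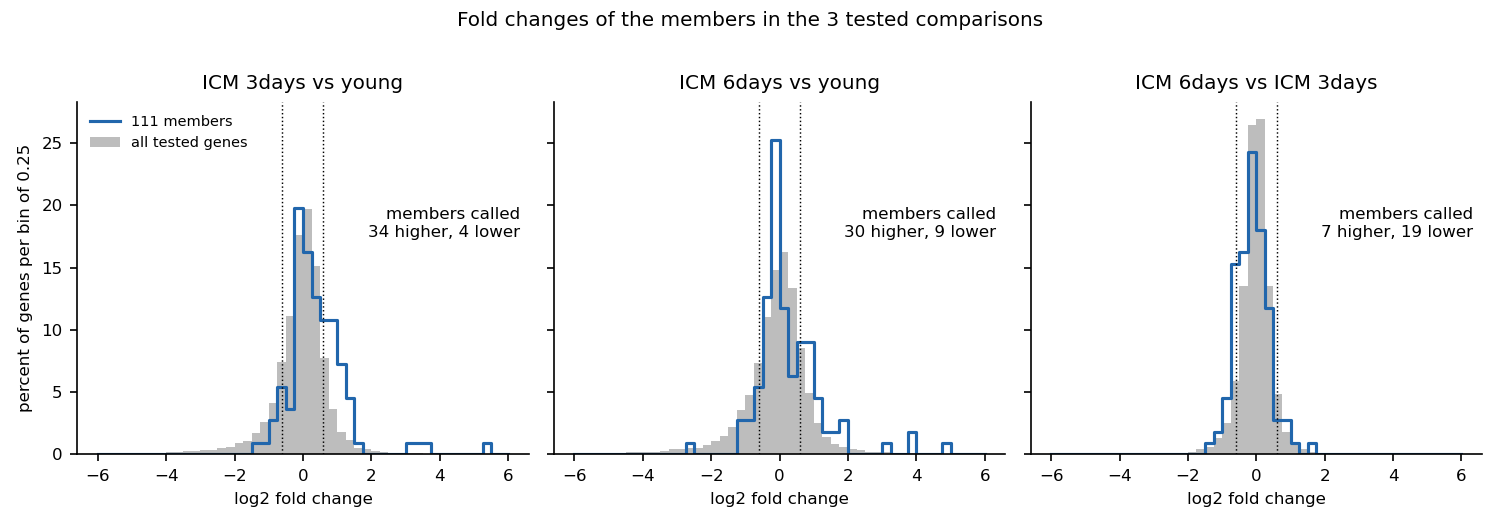
The x axis gives log2 fold changes and the y axis the percent of genes per bin of 0.25, with all tested genes as grey bars and the 111 members as a blue line, for each of the 3 comparisons that the rule did not use. Dotted lines mark 0.6 in both directions. The members' line stands above the grey bars on the right in the panels for 3 and 6 days against young, where 34 and 30 members were called higher, and on the left in the panel for 6 against 3 days, where 19 were called lower.

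The groups of members in what follows were formed by known function after the values had been seen, and they carry counts but no test of their own. Over all 111 members, 30.6% rose and 3.60% fell after 3 days, against 8.85% and 13.2% of all genes tested. After 6 days 27.0% rose and 8.11% fell, against 13.3% and 17.2%. From 3 to 6 days 6.31% rose and 17.1% fell, against 3.53% and 4.54%. Several groups were near the shares of all members. Of 10 members with roles in prostaglandin synthesis or inflammatory signalling, 5 rose and 1 fell after 3 days of ICM, and 4 rose and 1 fell after 6 days. PTGS2 (hg19 chromosome 1, 186640923 to 186649555) encodes the inducible cyclooxygenase. It had 85.9 and 30.1 CPM in young, 132 and 115 in ICM_3days, 137 and 112 in ICM_6days and 3.87 and 7.47 in MetaICM. Both ICM groups lay above young, whose libraries were far apart, and MetaICM lay below everything else. The log2FC against young was 0.99 (SE 0.33, adjusted p = 0.0414) after 3 days and 1.03 (SE 0.35, adjusted p = 0.0368) after 6 days, and neither call held with DESeq2. Without young replicate 1 it was 2.00 and 2.03. PLA2G4A, the cytosolic phospholipase A2 that supplies arachidonic acid, is the next eligible gene along the chromosome, 148476 bases from PTGS2. It had 14.9 and 13.1 CPM in young, 28.3 and 25.8 in ICM_3days, 33.3 and 33.9 in ICM_6days and 8.23 and 8.24 in MetaICM. This gene rose by 0.87 (SE 0.16, adjusted p = 0.00193) after 3 days and by 1.21 (SE 0.14, adjusted p = 9.79e-05) after 6 days. PTGS1, the constitutive cyclooxygenase, had 294 and 256 CPM in young, 459 and 416 in ICM_3days, 480.2 and 364 in ICM_6days and 158 and 166 in MetaICM, and its log2FC of 0.59 and 0.57 against young stayed just under 0.6. SLCO2A1, which carries prostaglandins into cells, went from 2.67 and 2.56 CPM in young to 6.17 and 8.89 in ICM_3days and 6.04 and 3.86 in ICM_6days, with 1.03 and 0.734 in MetaICM. Its log2FC was 1.43 (SE 0.27, adjusted p = 0.00212) and 0.86 (SE 0.28, adjusted p = 0.0297), the latter not called by DESeq2. These 4 genes, picked after the values were seen, have roles in the release of arachidonic acid, its conversion and uptake of the products. PTGS1 alone of them was not called under ICM. Other genes of the pathway were not examined as a set. On a list of NF-κB and secreted inflammatory factors, 7 of 23 eligible genes had both MetaICM libraries above the rest and 3 both below. The call of PTGS2 did not hold after 3 days without ICM_3days replicate 1 (0.87) or without young replicate 2 (0.40), nor after 6 days without young replicate 2 (0.46). The call of SLCO2A1 did not hold after 6 days without ICM_6days replicate 1 (0.53).

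TNFAIP6 encodes TSG-6, a secreted protein that binds hyaluronan and is induced by inflammatory cytokines. Its level was 12.5 and 6.53 CPM in young, 25.9 and 24.3 in ICM_3days, 39.1 and 36 in ICM_6days and 1.32 and 1.6 in MetaICM, and it rose by 1.29 (SE 0.25, adjusted p = 0.0021) after 3 days, by 1.89 (SE 0.24, adjusted p = 1.47e-04) after 6 days and by 0.60 (SE 0.11, adjusted p = 7.13e-04) between them. Its young libraries differed, and the log2FC against young was 1.90 after 3 and 2.50 after 6 days without young replicate 1 and 0.88 and 1.51 without young replicate 2. CXCL8, the chemokine interleukin-8, had 22.2 and 2.4 CPM in young, 8.76 and 6.46 in ICM_3days, 22.3 and 24 in ICM_6days and 0.637 and 1.08 in MetaICM. Its young libraries spanned most of the range of the ICM groups, so neither comparison with young was called (adjusted p = 0.338 and 0.294), while the rise from 3 to 6 days was (1.61 (SE 0.15, adjusted p = 4.25e-07)). MAP3K8, a kinase that links inflammatory receptors to ERK, rose after 3 days from 8.01 and 10.004 to 18.9 and 16.5 CPM (0.91 (SE 0.19, adjusted p = 0.0036)) and fell back to 9.74 and 9.63 after 6 days (−0.85 (SE 0.14, adjusted p = 3.60e-04)), with 3.13 and 3.15 in MetaICM. IFNE, an interferon gene of a single exon, went the other way, from 9.04 and 8.1 CPM in young to 3.86 and 6.11 and 4.57 and 5.24 in the ICM groups and 2.3 and 1.47 in MetaICM (−0.89 (SE 0.26, adjusted p = 0.0216) and −0.85 (SE 0.20, adjusted p = 0.00685)). The interleukin-1 receptor gene IL1R1 and NAMPT, which makes the NAD precursor nicotinamide mononucleotide, were called in no comparison, with 49.3 and 54.9 and 109 and 86.9 CPM in young and 24.5 and 23.4 and 50.2 and 53.1 in MetaICM. The call of TNFAIP6 did not hold from 3 to 6 days without ICM_3days replicate 2 (0.55) or without ICM_6days replicate 1 (0.57). The call of MAP3K8 did not hold after 3 days without ICM_3days replicate 1 (0.78). The call of IFNE did not hold after 3 days without ICM_3days replicate 1 (−0.59), nor after 6 days without ICM_6days replicate 1 (−0.74).

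**Figure D3:**
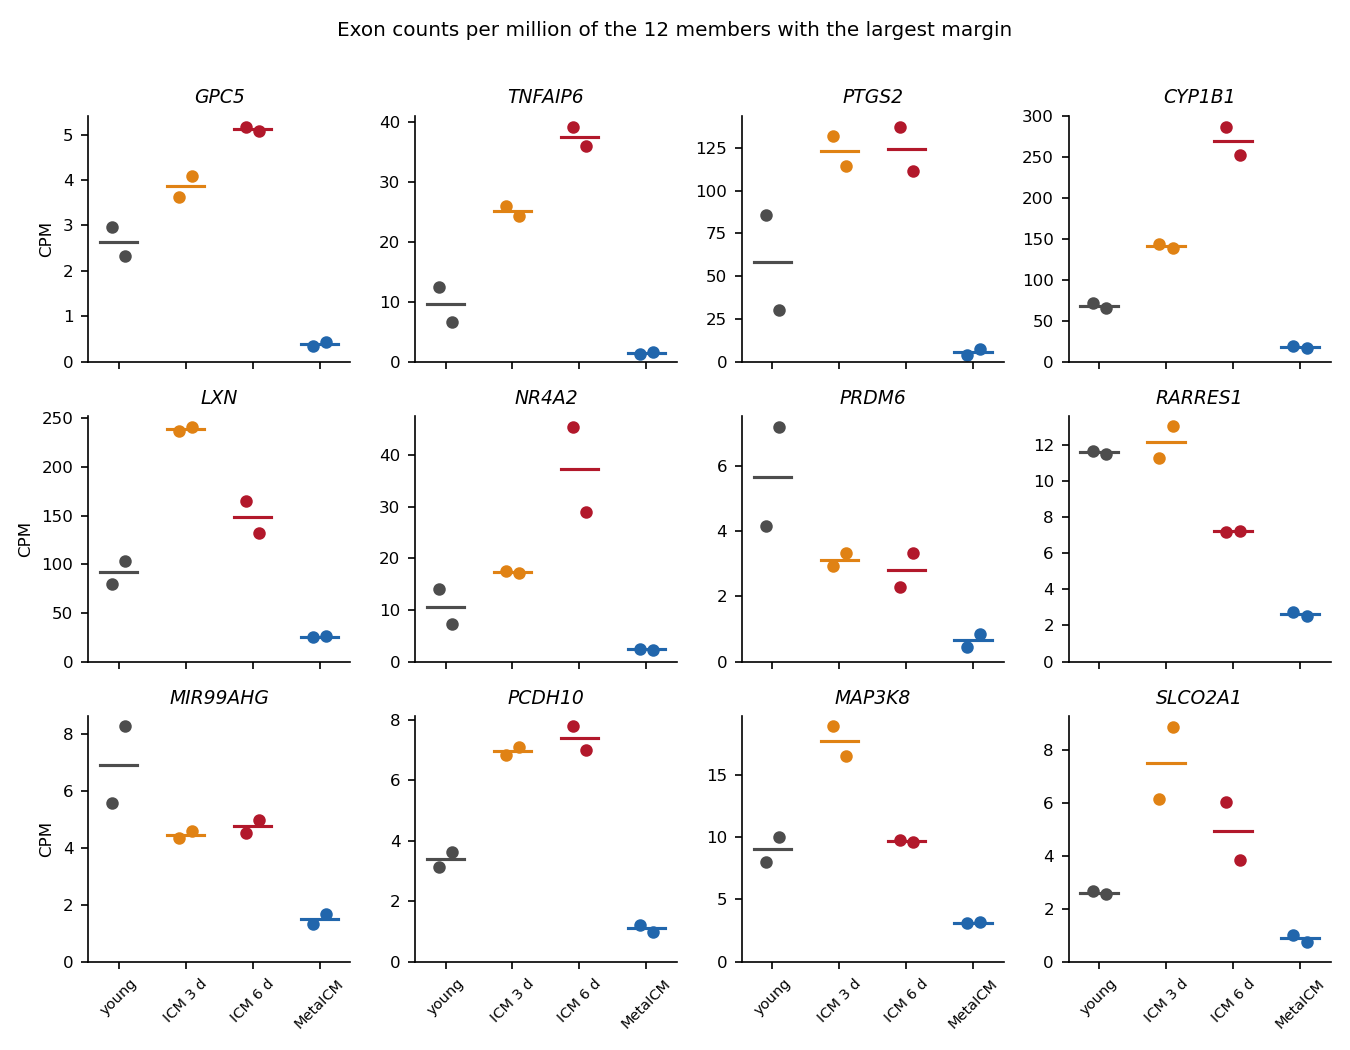
CPM (linear y axes from 0) of the 12 members with the largest margin, by group on the x axis, with 1 point per library and a line at the mean of 2 libraries. The MetaICM points lie below all others in each panel, from 0.343 and 0.432 CPM for GPC5 to 25.7 and 26 CPM for LXN. The 3 other groups are ordered differently between panels, with PRDM6 and MIR99AHG highest in young, LXN and MAP3K8 in ICM_3days, and CYP1B1 and NR4A2 in ICM_6days.

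All 3 NR4A genes, which encode orphan nuclear receptors that respond early to signals, were members, as was FOS. NR4A2 had 14 and 7.28 CPM in young, 17.5 and 17.2 in ICM_3days, 45.4 and 29 in ICM_6days and 2.4 and 2.33 in MetaICM. It rose after 6 days against young (1.72 (SE 0.28, adjusted p = 8.19e-04)) and against 3 days (1.12 (SE 0.16, adjusted p = 4.55e-05)). Without young replicate 1 the log2FC of NR4A2 against young after 6 days was 2.33. NR4A3 had 3.75 and 2.65 CPM in young, 7.16 and 6.04 in ICM_3days, 7.56 and 5.71 in ICM_6days and 0.931 and 1.38 in MetaICM, and rose at both times (0.95 (SE 0.27, adjusted p = 0.0201) and 0.98 (SE 0.26, adjusted p = 0.0118)), with all libraries of the ICM groups above young. NR4A1 had 41.6 and 33 CPM in young, 42.7 and 27.9 and 28.7 and 26.7 in the ICM groups and 7.79 and 14.2 in MetaICM, and was not called in any comparison. FOS had 15.4 and 17.5 CPM in young, 12.5 and 11.5 in ICM_3days, 12.8 and 17.6 in ICM_6days and 2.01 and 6.39 in MetaICM, where its 2 libraries differed more than those of any other member, and its log2FC of −0.52 after 3 days (adjusted p = 0.0406) was short of the size required. Of the 28 eligible genes on a list of 32 immediate early and MAPK feedback genes, 6 had both MetaICM libraries below the rest and 3 both above. Over all eligible genes 14.2% were below and 14.7% above. Besides the 4 members, the 6 were DUSP1 and ETV4, with margins of 1.05 and 1.12. The call of NR4A3 did not hold after 3 days without ICM_3days replicate 1 (0.80) or without young replicate 2 (0.70), nor after 6 days without ICM_6days replicate 1 (0.79).

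Of 13 retinoid, hormone, redox and xenobiotic (foreign compound) members, 8 rose and none fell after 3 days. After 6 days 7 rose and 2 fell, and from 3 to 6 days 1 rose and 6 fell. LXN and KYNU were placed in this group too. AKR1B10, an aldo-keto reductase that acts on retinaldehyde and lipid aldehydes, had 3.75 and 3.14 CPM in young, 144 and 144 in ICM_3days, 98.5 and 110.1 in ICM_6days and 1.42 and 1.81 in MetaICM. Its rise of 5.29 (SE 0.17, adjusted p = 6.15e-09) after 3 days and 4.85 (SE 0.17, adjusted p = 3.34e-08) after 6 days was the largest of all members. AKR1C1, a reductase of steroids and aldehydes, rose from 104 and 57.9 CPM to 1133 and 1108 and 1306 and 1335 (3.71 (SE 0.24, adjusted p = 2.82e-07) and 3.97 (SE 0.25, adjusted p = 8.56e-07)), with 36.1 and 37.9 in MetaICM. Both genes have close relatives in tandem, and since reads that map to several places were not counted, their levels are uncertain. SLC7A11, the cystine importer that feeds glutathione synthesis, had 807 and 793 CPM in young, 1649 and 1796 in ICM_3days, 2268 and 2253 in ICM_6days and 522 and 496 in MetaICM, and rose by 1.03 (SE 0.13, adjusted p = 9.46e-05) and 1.45 (SE 0.12, adjusted p = 5.44e-06). KYNU, which encodes the kynureninase of tryptophan breakdown, had 23.9 and 16.5 CPM in young, 194 and 224 and 285 and 300.5 in the ICM groups and 10.1 and 9.15 in MetaICM, with a log2FC of 3.28 and 3.80 against young. For these 4 genes young lay between MetaICM and the ICM groups and nearer to MetaICM, at 2.13, 2.19, 1.57 and 2.1 times the MetaICM mean.

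CYP1B1, a cytochrome P450 known as a target of the aryl hydrocarbon receptor (hg19 chromosome 2, 38294746 to 38303323), climbed from 71.7 and 65.1 CPM in young to 144 and 139 after 3 days and 287 and 253 after 6 days of ICM (0.97 (SE 0.13, adjusted p = 1.31e-04), 1.93 (SE 0.12, adjusted p = 9.55e-07) and 0.96 (SE 0.09, adjusted p = 3.65e-07) between them). In MetaICM it had 18.5 and 16.6 CPM. RARB, a retinoic acid receptor that is itself switched on by retinoic acid, had 5.06 and 5.95 CPM in young, 15.4 and 18.6 in ICM_3days, 9.9 and 10.9 in ICM_6days and 2.74 and 3.02 in MetaICM. It rose by 1.55 (SE 0.20, adjusted p = 1.16e-04) after 3 days, then fell by 0.67 on the log2 scale (adjusted p = 0.00332) and was still higher than young after 6 days (0.88 (SE 0.19, adjusted p = 0.00412)). DHRS3, which reduces retinaldehyde and is also induced by retinoic acid, had 41.4 and 39.9 CPM in young, 87.5 and 92.1 after 3 days, 40.0 and 39 after 6 days and 16.1 and 15.2 in MetaICM (1.06 (SE 0.13, adjusted p = 7.57e-05), then −1.15 (SE 0.10, adjusted p = 7.90e-08)), and after 6 days it was not called against young (log2FC −0.09, adjusted p = 0.597). RARRES1, named as a gene that responds to retinoid receptors, and LXN, the carboxypeptidase inhibitor latexin, are related genes and lie side by side on chromosome 3, 24243 bases apart. LXN had 79.7 and 104 CPM in young, 237 and 242 in ICM_3days, 165 and 133 in ICM_6days and 25.7 and 26 in MetaICM, rising by 1.31 (SE 0.14, adjusted p = 2.06e-05) after 3 days and then falling (−0.66 (SE 0.10, adjusted p = 9.18e-05)). RARRES1 had 11.7 and 11.5 CPM in young, 11.3 and 13.1 in ICM_3days, 7.18 and 7.25 in ICM_6days and 2.74 and 2.55 in MetaICM and fell after 6 days against young (−0.73 (SE 0.17, adjusted p = 0.00649)). The neighbours thus shared the low MetaICM level and the fall from 3 to 6 days but not the earlier rise. The call of LXN did not hold after 6 days without ICM_6days replicate 1 (0.51) or without young replicate 1 (0.50), nor from 3 to 6 days without ICM_6days replicate 2 (−0.52). The call of RARRES1 did not hold after 6 days without ICM_6days replicate 1 (−0.70) or without ICM_6days replicate 2 (−0.74). The call of RARB did not hold from 3 to 6 days without ICM_3days replicate 2 (−0.55) or without ICM_6days replicate 1 (−0.58).

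Among the other members of this group, the estrogen receptor gene ESR1 had 11.2 and 16.5 CPM in young and 5.05 and 6.47 in MetaICM and fell from 3 to 6 days (−0.66 (SE 0.16, adjusted p = 0.00583)). PAQR5, which encodes a membrane receptor of progestins, also fell between these times (−0.71 (SE 0.12, adjusted p = 3.46e-04)), and 797 of its exon bases overlap a gene on the opposite strand. HEPH, the iron oxidase hephaestin, fell after 6 days of ICM from 37.9 and 44.1 to 23.3 and 20.6 CPM (−0.94 (SE 0.13, adjusted p = 3.34e-04)), with 12.7 and 12.9 in MetaICM. NCOA7, a coactivator of nuclear receptors, was called in no comparison and had 42.9 and 46.9 CPM in young against 26.5 and 25.7 in MetaICM. The call of ESR1 did not hold from 3 to 6 days without ICM_3days replicate 2 (−0.42) or without ICM_6days replicate 1 (−0.58). The call of PAQR5 did not hold from 3 to 6 days without ICM_6days replicate 2 (−0.54).

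**Figure D4:**
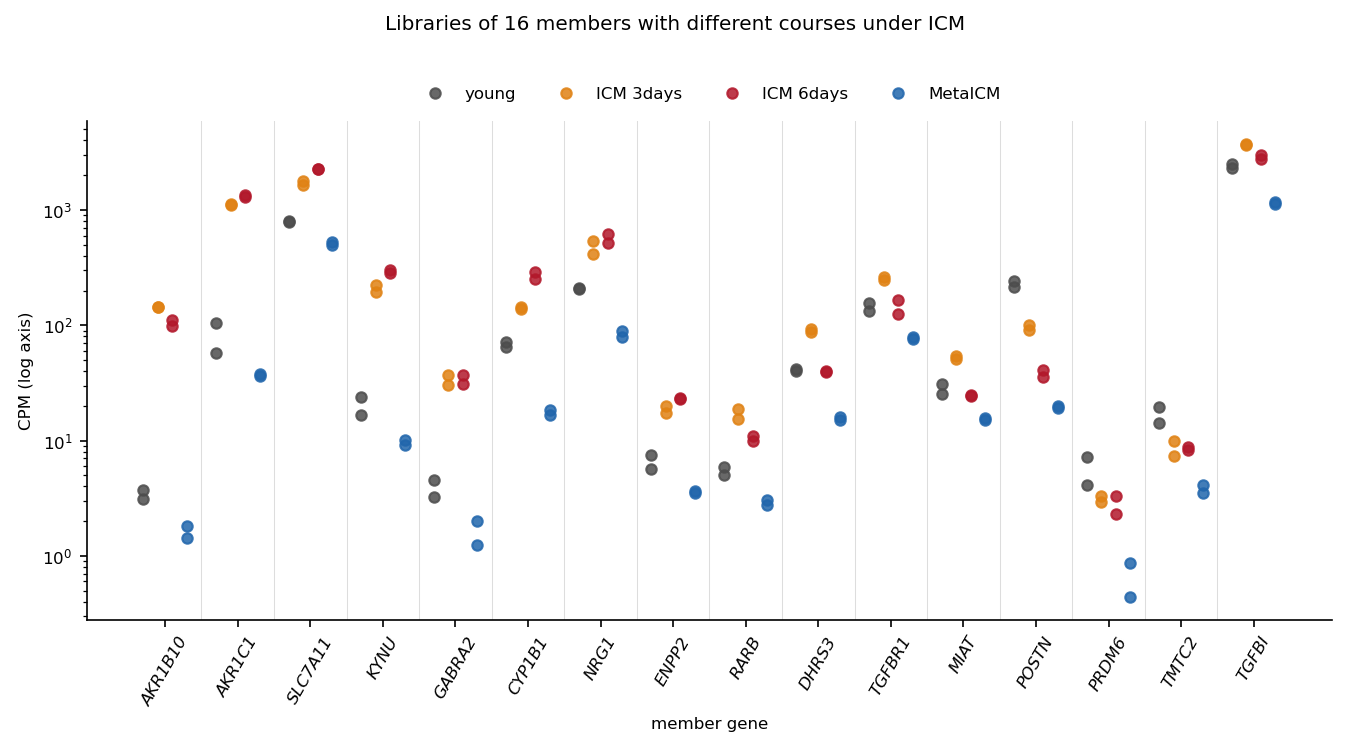
CPM on a log axis for 16 members chosen after their values were seen to show different courses, with 1 point per library and colours for the 4 groups. The aldo-keto reductase genes, SLC7A11, KYNU and GABRA2 rise from young to both ICM groups, RARB, DHRS3, TGFBR1 and MIAT peak in ICM_3days, and POSTN falls from 213 and 241 CPM in young to 41 and 35.6 CPM in ICM_6days. The MetaICM points are the lowest of each gene.

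Of 13 members that encode matrix proteins, secreted factors or parts of the TGF-β and BMP pathways, 5 rose and 1 fell after 3 days of ICM, and 4 rose and 1 fell after 6 days. TGFBI, a matrix protein induced by TGF-β, was the most abundant member, with 2518 and 2298 CPM in young, 3725 and 3636 in ICM_3days, 3011 and 2748 in ICM_6days and 1171 and 1117 in MetaICM. Per kilobase of exon its mean level was 1102 CPM over the 6 libraries and 422 in MetaICM, while that of GPC5, the member with the largest margin, was 1.32 and 0.132. POSTN, which encodes the matrix protein periostin, fell stepwise, from 213 and 241 CPM in young to 90.5 and 101 after 3 days and 41 and 35.6 after 6 days, with 19.1 and 19.9 in MetaICM (−1.32 (SE 0.13, adjusted p = 9.08e-06) and −2.61 (SE 0.12, adjusted p = 1.58e-07) against young, −1.29 (SE 0.10, adjusted p = 4.73e-08) between the times). It was the only member called lower in all 3 comparisons. NRG1, a growth factor that binds ERBB receptors, rose from 210.3 and 208 CPM to 418 and 539 and 619.8 and 521 (1.11 (SE 0.14, adjusted p = 8.56e-05) and 1.40 (SE 0.12, adjusted p = 8.16e-06)) and had 89.3 and 79.2 in MetaICM. ENPP2, the secreted enzyme autotaxin that makes lysophosphatidic acid, rose from 7.56 and 5.62 CPM to 19.7 and 17.5 and 23.5 and 23.1 (1.41 (SE 0.21, adjusted p = 3.11e-04) and 1.75 (SE 0.18, adjusted p = 3.61e-05)), with 3.67 and 3.54 in MetaICM.

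TGFBR1, the type I receptor of TGF-β, had 133 and 155 CPM in young, 263 and 246 in ICM_3days, 167 and 126 in ICM_6days and 76.3 and 79.3 in MetaICM. It rose after 3 days (0.75 (SE 0.13, adjusted p = 8.96e-04)) and fell from 3 to 6 days (−0.77 (SE 0.11, adjusted p = 4.42e-05)). SMAD9, a SMAD of the BMP branch, rose after 6 days (0.91 (SE 0.13, adjusted p = 3.50e-04)), with 23.2 and 23.8 CPM in young, 49.2 and 42.2 in ICM_6days and 14.5 and 15.4 in MetaICM. GPC5, a cell surface heparan sulfate proteoglycan that spans 1468613 bases, had 2.96 and 2.31 CPM in young, 3.63 and 4.1 in ICM_3days, 5.17 and 5.08 in ICM_6days and 0.343 and 0.432 in MetaICM, and its rise after 6 days (0.89 (SE 0.25, adjusted p = 0.0147)) was not called by DESeq2. APCDD1L and DIPK2A, a secreted kinase-like protein, both rose after 3 days (1.18 (SE 0.14, adjusted p = 6.35e-05) and 1.32 (SE 0.14, adjusted p = 1.66e-05)) and fell by 6 days (−0.74 and −0.81). COL10A1 (collagen X), HMCN1 (hemicentin), ANGPT2 (a ligand of the TEK receptor) and PCSK1 (a protease that processes prohormones) were called in no comparison, and their young libraries had 9.6 and 10.4, 60.7 and 62.9, 8.92 and 11.3 and 9.55 and 7.69 CPM against 4.46 and 4.58, 26.5 and 25.6, 4.7 and 4.06 and 3.82 and 3.28 in MetaICM. The call of GPC5 did not hold after 6 days without ICM_6days replicate 1 (0.90) or without ICM_6days replicate 2 (0.90). The call of TGFBR1 did not hold from 3 to 6 days without ICM_6days replicate 2 (−0.60).

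The 17 members that encode channels, adhesion molecules and other membrane proteins included receptors best known from neurons. Of these 17, 5 rose and 1 fell after 3 days, and 6 rose and 1 fell after 6 days. GABRA2, an alpha subunit of the GABA-A receptor, rose from 4.55 and 3.22 CPM in young to 30.2 and 37.3 and 36.9 and 30.8 (3.01 (SE 0.21, adjusted p = 6.31e-07) and 3.05 (SE 0.20, adjusted p = 1.23e-06)), with 2.01 and 1.252 in MetaICM. GABRE, another subunit of this receptor, rose from 4.04 and 4.71 to 8.38 and 11.4 and 8.92 and 11.5 CPM (1.10 (SE 0.24, adjusted p = 0.00492) and 1.19 (SE 0.22, adjusted p = 0.00152)), with 2.45 and 1.64 in MetaICM. The adhesion gene PCDH10, a protocadherin, rose at both times (0.97 (SE 0.24, adjusted p = 0.0104) and 1.09 (SE 0.22, adjusted p = 0.00259)) and had 3.13 and 3.64 CPM in young and 1.22 and 0.993 in MetaICM. NKAIN2, which binds a sodium pump subunit, and SEL1L3 rose at both times as well, by 1.16 and 0.71 after 3 days and 0.64 and 0.88 after 6 days, the call of NKAIN2 after 6 days not being made by DESeq2. TMEM156 rose after 6 days (1.09 (SE 0.26, adjusted p = 0.00679)), and the adhesion gene FLRT2 rose from 3 to 6 days (0.75 (SE 0.09, adjusted p = 1.15e-05)). TMTC2, an enzyme of the endoplasmic reticulum that adds mannose to cadherins, fell at both times, from 14.3 and 19.6 CPM in young to 7.39 and 9.86 and 8.87 and 8.36 (−1.05 (SE 0.21, adjusted p = 0.00286) and −1.01 (SE 0.18, adjusted p = 0.00139)), with 4.11 and 3.5 in MetaICM. EVI2A fell from 3 to 6 days (−0.71 (SE 0.17, adjusted p = 0.00632)). The call of EVI2A did not hold from 3 to 6 days without ICM_3days replicate 2 (−0.40). The call of PCDH10 did not hold after 3 days without ICM_3days replicate 1 (0.98). The call of NKAIN2 did not hold after 3 days without ICM_3days replicate 2 (0.82), nor after 6 days without ICM_6days replicate 1 (0.77), without ICM_6days replicate 2 (0.52) or without young replicate 1 (0.56). The call of SEL1L3 did not hold after 3 days without young replicate 2 (0.59).

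The 8 members of this group that were called nowhere were PTPRD (a receptor phosphatase), GRIK1 (a kainate receptor), SLC6A15 (an amino acid transporter), SLC16A7 (a transporter of monocarboxylates), CACHD1, HTR2B (a serotonin receptor), CATSPERE and LRRC19. SLC6A15 had 46.7 and 15 CPM in its young libraries, which were far apart, 29.8 and 29.1 in ICM_3days, 33.7 and 22.2 in ICM_6days and 8.52 and 7.21 in MetaICM. SLC16A7 had 59.4 and 65.6 CPM in young and 29.5 and 24.1 in MetaICM, and its log2FC of 0.46 and 0.51 under ICM had adjusted p = 0.0193 and 0.00544 but was under the size required. PTPRD, the longest member at 2298757 bases, had 4.72 and 7.52 CPM in young and 1.91 and 1.6 in MetaICM.

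In the 16 members that encode intracellular signalling proteins and enzymes, 4 rose after 3 days and 2 after 6 days, 4 fell from 3 to 6 days, and 10 were called nowhere. DGKI, a diacylglycerol kinase, rose from 27.1 and 22.8 to 42.7 and 51.7 CPM after 3 days (0.83 (SE 0.16, adjusted p = 0.00205)) and fell to 31.7 and 27.6 by 6 days (−0.64 (SE 0.12, adjusted p = 6.50e-04)), with 12 and 11.9 in MetaICM. The glycosyltransferase gene ST6GALNAC3 (1.03, then −0.65) and MLF1 (0.81, then −0.84) were likewise called higher after 3 days and lower from 3 to 6 days, the fall of ST6GALNAC3 not with DESeq2, and EFCAB13 fell between the times (−0.85 (SE 0.13, adjusted p = 1.02e-04)). DDI1, a gene without introns inside PDGFD, rose at both times (0.97 (SE 0.26, adjusted p = 0.0161) and 0.94 (SE 0.19, adjusted p = 0.00281)), and the docking protein gene DOK6 rose after 6 days (0.61 (SE 0.21, adjusted p = 0.041)), which DESeq2 did not call. The host PDGFD was itself called higher at both times (log2FC 0.75 and 1.34). Among the 10 were PDE4D, which breaks down cAMP, with 32.6 and 36.8 CPM in young, 31.5 and 31 in ICM_3days, 30.9 and 27.2 in ICM_6days and 13.2 and 15.6 in MetaICM. KLHL5 had 322 and 387 CPM in young, 353 and 380.3 and 373 and 305 in the ICM groups and 194 and 199 in MetaICM, nearly flat over the 6 libraries, and TTN, the gene of titin, had 189.6 and 207, 165 and 259, 187 and 195 and 108 and 91.8 CPM. For TTN, 5226 exon bases overlap genes on the opposite strand. The others called nowhere were RPS6KA6, CBLB, ARHGAP26, BTBD11, SHTN1, FIGN and the glycosyltransferase gene GCNT1, with mean young levels from 1.79 (BTBD11) to 2.42 (RPS6KA6) times the MetaICM mean. The call of DDI1 did not hold after 3 days without ICM_3days replicate 2 (0.60). The call of MLF1 did not hold after 3 days without ICM_3days replicate 1 (0.82) or without ICM_3days replicate 2 (0.80). The call of ST6GALNAC3 did not hold after 3 days without ICM_3days replicate 1 (0.86), nor from 3 to 6 days without ICM_3days replicate 1 (−0.48) or without ICM_6days replicate 2 (−0.38). The call of DGKI did not hold from 3 to 6 days without ICM_3days replicate 2 (−0.51) or without ICM_6days replicate 2 (−0.56). The call of DOK6 did not hold after 6 days without ICM_6days replicate 1 (0.65), without ICM_6days replicate 2 (0.58) or without young replicate 2 (0.52).

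Of 11 members that encode transcription or RNA-binding factors, 2 rose and 1 fell after 3 days, 2 rose and 2 fell after 6 days, and 6 were called nowhere. PRDM6, a repressor known from smooth muscle, had 4.15 and 7.19 CPM in young, 2.92 and 3.33 in ICM_3days, 2.28 and 3.33 in ICM_6days and 0.441 and 0.863 in MetaICM. Its falls (−0.91 (SE 0.30, adjusted p = 0.0375) and −1.02 (SE 0.31, adjusted p = 0.022)) rested on low counts and were lost in several alternatives, DESeq2 for the earlier among them. PRDM1, which encodes the repressor BLIMP1, rose after 3 days from 17.2 and 16.7 to 34.6 and 36.5 CPM (0.99 (SE 0.15, adjusted p = 3.64e-04)) and fell by 6 days to 20.2 and 24.6 (−0.64 (SE 0.12, adjusted p = 9.30e-04)), with 9.7 and 10.3 in MetaICM. BACH2 fell after 6 days (−0.82 (SE 0.21, adjusted p = 0.00929)), from 6.65 and 7.19 to 3.97 and 4.07 CPM, with 1.22 and 1.68 in MetaICM, and CREB5, of the CREB family, rose after 6 days (0.87 (SE 0.13, adjusted p = 4.14e-04)). EID3, a gene of 1 exon inside TXNRD1 on the same strand, rose at both times (1.04 (SE 0.17, adjusted p = 6.18e-04) and 0.88 (SE 0.14, adjusted p = 5.42e-04)), with 57.3 and 69.4 CPM in young, 113 and 162 and 109 and 131 in the ICM groups and 32.4 and 38 in MetaICM. Its host TXNRD1, with at least 1244 CPM in each of the 6 libraries, was called higher at both times too (log2FC 1.32 and 1.47). FOXP2, LMO3, RFX3, GLIS1, ZNF33B and the splicing factor gene NOVA1 were called nowhere, and for GLIS1, with 10.9 and 13.3 CPM in young, 12.8 and 14.5 in ICM_3days, 10.6 and 11.4 in ICM_6days and 6.96 and 6.99 in MetaICM, the 6 libraries lay close together. The call of PRDM6 did not hold after 3 days without ICM_3days replicate 1 (−0.83), without ICM_3days replicate 2 (−0.98) or without young replicate 2 (−0.54), nor after 6 days without ICM_6days replicate 1 (−0.76) or without young replicate 2 (−0.63). The call of BACH2 did not hold after 6 days without ICM_6days replicate 1 (−0.79) or without ICM_6days replicate 2 (−0.85). The call of PRDM1 did not hold from 3 to 6 days without ICM_6days replicate 1 (−0.48).

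The remaining 27 members do not encode a protein or had no entry in the RefSeq table: 19 were long noncoding RNA genes (17.1% of members, against 4.13% of eligible genes), 5 pseudogenes (4.5045%, against 1.75%) and 3 without an entry (2.70%, against 0.685%). Of the 476 other eligible long noncoding RNA genes, 22.9% also had both MetaICM libraries below all 6 others, against 14.2% of all eligible genes. Of the 27 members, 4 rose after 3 days, 3 rose and 2 fell after 6 days, and 19 were called nowhere. MIAT rose after 3 days (0.82 (SE 0.15, adjusted p = 0.00134)) and fell back by 6 days (−1.06 (SE 0.11, adjusted p = 8.24e-07)), with 25.3 and 31.1 CPM in young, 54 and 50.6 in ICM_3days, 25 and 24.2 in ICM_6days and 15 and 15.6 in MetaICM. LOC101929415 rose at both times, from 3.58 and 4.22 CPM to 6.88 and 8.75 and 12.5 and 14.3, with 2.11 and 2.37 in MetaICM, and 197 of its exon bases overlap PENK on the opposite strand. HIF1A-AS3 rose at both times (0.68 (SE 0.19, adjusted p = 0.0161) and 0.68 (SE 0.15, adjusted p = 0.00505)), DIRC3-AS1 after 3 days (0.63 (SE 0.21, adjusted p = 0.0417)) and RDH10-AS1 after 6 days (0.68 (SE 0.15, adjusted p = 0.0052)) and from 3 to 6 days (0.77). ST7-AS2 (−0.62 (SE 0.20, adjusted p = 0.0271)) fell after 6 days, and LOC145474 fell from 3 to 6 days (−0.75 (SE 0.23, adjusted p = 0.0286)). DESeq2 made neither of these calls, nor that of DIRC3-AS1. MIR99AHG, the host transcript of a microRNA cluster and the member of this kind with the largest margin, had 5.57 and 8.27 CPM in young, 4.33 and 4.58 in ICM_3days, 4.51 and 4.97 in ICM_6days and 1.32 and 1.68 in MetaICM, and its log2FC of −0.69 after 3 days was not called (adjusted p = 0.0598). The call of DIRC3-AS1 did not hold after 3 days without ICM_3days replicate 2 (0.44) or without young replicate 2 (0.52). The call of HIF1A-AS3 did not hold after 3 days without ICM_3days replicate 2 (0.45) or without young replicate 1 (0.56), nor after 6 days without ICM_6days replicate 2 (0.58) or without young replicate 1 (0.55). The call of LOC101929415 did not hold after 3 days without ICM_3days replicate 2 (0.77). The call of ST7-AS2 did not hold after 6 days without ICM_6days replicate 1 (−0.43) or without young replicate 2 (−0.56). The call of RDH10-AS1 did not hold after 6 days without young replicate 1 (0.47), nor from 3 to 6 days without ICM_3days replicate 1 (0.56). The call of LOC145474 did not hold from 3 to 6 days without ICM_3days replicate 2 (−0.34) or without ICM_6days replicate 1 (−0.63).

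The members noncoding or without an entry that were called nowhere were, besides MIR99AHG, the antisense transcripts ZBTB20-AS5, ZFPM2-AS1, LURAP1L-AS1, SOX5-AS1, CKMT2-AS1 and NUTM2B-AS1, the intronic transcripts PLCB1-IT1 and N4BP2L2-IT2, the pseudogenes TMEM14EP, GVINP1, PGAM1P5, BEND3P3 and MICOS10P1, and DIRC3, LINC00894, LOC101927516, LOC101929709 and LOC286437. Reads from a pseudogene and its parent gene cannot always be told apart, and the counts ignored strand, so a value of an antisense transcript may hold reads of its partner. TMEM14EP had 45.3 and 41.4 CPM in young, 33 and 47.8 in ICM_3days, 31.5 and 31.6 in ICM_6days and 16.7 and 14.8 in MetaICM. N4BP2L2-IT2 had 34.4 and 41.6 CPM in young, 41.6 and 63.2 in ICM_3days, 40.9 and 38.2 in ICM_6days and 22.3 and 19.1 in MetaICM.

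The position of the members, which the rule did not use, is given beside that of the eligible genes. Of the 111, 21 lay wholly inside another gene (18.9%, against 6.00% of eligible genes), 7 of them on the same and 14 on the opposite strand. None of the 20 host genes was a member, but 15 had both MetaICM libraries below all 6 others, against 14.2% of all eligible genes. The median margin was 1.15 over the 20 hosts (0.746 to 1.41), against 0.743 for all eligible genes. LOC101929710 and SLC25A53, the hosts of PCSK1 and LOC286437, were too low to be eligible genes but are counted among the 20. The hosts included SIPA1L1 (host of LOC145474, margin 1.37), PDGFD (of DDI1, 1.41), MBNL1 (of TMEM14EP, 1.35), NF1 (of EVI2A, 1.16), GFM1 (of LXN, 1.12) and N4BP2L2 (of MICOS10P1 and N4BP2L2-IT2, 1.23). Of the 697 other eligible genes inside another gene, 21.1% had both MetaICM libraries below the rest, against 12.9% of 11168 eligible genes inside none. Their median level, as log2 of CPM plus 0.1 over the mean of the 6, was −0.16 and −0.18 in MetaICM and between −0.11 and 0.10 in the 6 others.

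ICM_3days replicate 2 stood above replicate 1 in the same genes. In all 21 members inside another gene it was higher than replicate 1, in 66.7% of them by 1.5 times or more, whereas this held for 13.3% of the 697 and 1.04% of the 11168. Replicate 2 was the higher of the pair in 60.5% of the 697, and in 67.6% of the 476 other eligible long noncoding RNA genes. Over all members it was the higher in 81 of 111 (73.0%, against 48.5% of eligible genes), and among the 27 members that are noncoding or have no RefSeq entry in 26. Examples are LOC145474 with 6.36 and 11 CPM in ICM_3days, LOC101927516 with 7.54 and 14.8, DDI1 with 7.87 and 13.1, COL10A1 with 10.03 and 15.6 and N4BP2L2-IT2 with 41.6 and 63.2. Young replicate 2 was also the higher of its pair in 14 of the 21 (66.7%, against 55.6% of eligible genes). The young libraries were 1.5 times or more apart in 9.52% of the 21. Over the 697, the median level on the log2 scale above was −0.04 and 0.10 in young and −0.01 and 0.09 in ICM_3days. Genes inside a host's intron can collect reads of the host's unspliced RNA. The part of this in the low MetaICM level, in ICM_3days replicate 2 and in young replicate 2 was not tested. Without ICM_3days replicate 1, which leaves replicate 2 alone in its group, 29 members were lower after 6 than after 3 days instead of 19, and without replicate 2 it was 15.

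Members were longer than eligible genes, with a median span of 65664 bases against 30509, and 18 spanned more than 400 kb (16.2%, against 2.10%). The 5 longest were PTPRD (2298757 bases), PDE4D (1527247), GPC5 (1468613), NRG1 (1134295) and NKAIN2 (1021796). The exons of members were less rich in G and C, with a median of 42.3% against 47.7%. Their exon length (median 4705 against 3840.5 bases) and number of exon blocks (9 against 10) were closer to those of eligible genes. Exons of 14 members overlapped a gene on the opposite strand (12.6%, against 20.4%). No member lay on chromosome 19, which holds 6.86% of eligible genes, or on chromosome 16, which holds 4.53%. In 8 places a member was followed along the chromosome by another member among eligible genes: PTGS2 and PLA2G4A, LXN and RARRES1, DIRC3-AS1 and DIRC3, TMEM156 and KLHL5, BEND3P3 and NUTM2B-AS1, MICOS10P1 and N4BP2L2-IT2, TMTC2 and SLC6A15 (1724625 bases apart), and PTPRD and LURAP1L-AS1 (2086996 bases apart).

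**Figure D5:**
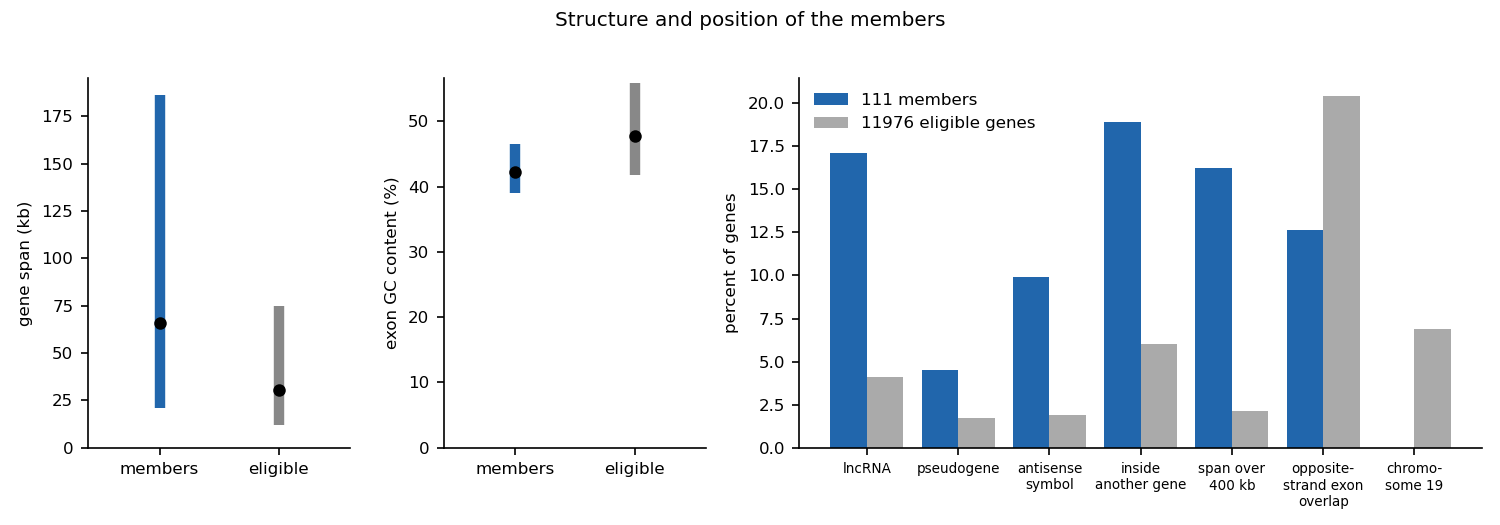
The left and middle panels give the median (point) and the span from the first to the third quartile (bar) of gene span in kb and of exon GC content in percent, for the 111 members and the 11976 eligible genes, of which 11855 have a single span. The right panel gives the percent of genes of each kind with a property. Members stand above eligible genes for long noncoding RNA (17.1% against 4.13%), position inside another gene (18.9% against 6.00%) and a span over 400 kb (16.2% against 2.10%), and below them for opposite-strand exon overlap and chromosome 19.

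On 18 gene lists, 13 distinct members appeared. Over all eligible genes, 14.2% had both MetaICM libraries below the rest and 14.7% both above. Of all genes tested, 8.85% rose and 13.2% fell after 3 days, and 13.3% rose and 17.2% fell after 6 days. Several counts below are near these shares and then say nothing particular of their list. No list was tested. The list of NRF2 and antioxidant genes held 3 (AKR1B10, AKR1C1 and SLC7A11) among 27 eligible genes, of which 7 had both MetaICM libraries below the rest and none both above, and of its 30 genes 28 rose after 3 days and 28 after 6 days of ICM. TGFBI and TGFBR1 were on the TGF-β and BMP list, where 9 of 28 eligible genes were lowest in MetaICM and 4 highest, and 3 rose and 8 fell after 3 days among 30 tested. CXCL8 and PTGS2 were on the list of NF-κB targets and secreted inflammatory factors, where 3 of 23 eligible genes were lowest in MetaICM and 7 highest, and after 3 days 3 rose and 14 fell among 31 tested. POSTN stood on the extracellular matrix list (3 of 44 lowest in MetaICM and 5 highest, 2 higher and 27 lower after 3 days among 45), SLC7A11 also on that of ATF4 and amino acid stress (3 of 26 lowest and 4 highest, 2 higher and 19 lower among 28) and PRDM1 on that of p53 targets (2 of 35 lowest and 4 highest, 21 higher and 1 lower among 35). On the immediate early list, 6 of 28 eligible genes were lowest in MetaICM and 3 highest. Of its 32 genes, 6 rose and 2 fell after 3 days, and 11 rose and 6 fell after 6 days.

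No member appeared on the other 11 lists, whose counts are again to be read beside 14.2% below and 14.7% above over all eligible genes. Of these, chromatin regulators had the largest share of genes with both MetaICM libraries below the rest, 16 of 48, with margins from 1.01 to 1.249 (KMT2A 1.03, EP300 1.23, NIPBL 1.249), all short of the rule. The genes with both MetaICM libraries below the rest, and those with both above, numbered 5 and 6 of 24 for YAP and TEAD, 3 and 6 of 23 for WNT, 2 and 1 of 9 for Notch and 2 and 6 of 23 for smooth muscle and contractile genes. They were 2 and 10 of 27 for cholesterol and SREBP, 1 and 2 of 14 for the circadian clock and 7 and 7 of 34 for semaphorins, ephrins and axon guidance. For heat shock genes they were 0 and 4 of 23, for interferon genes 0 and 9 of 21, for chromatin regulators 16 and 2 of 48, and for mitosis and DNA replication, whose genes fell under ICM (43 of 44 after 3 days), 0 and 2 of 39. WNT5A, SLIT2 and CTH came nearest to membership among the listed genes outside it, with margins of 1.44, 1.38 and 1.45.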

How the data were processed

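The authors aligned paired-end reads of 8 factory RNA-Seq libraries to GRCh37 (hg19) with STAR (version 2.6.0c per the labels) and deposited raw counts of read pairs on the exons of each RefSeq gene, made with featureCounts (version 1.6.3 per the file headers) without regard to strand, from primary alignments with both ends mapped. Multiply mapped pairs, and pairs that overlapped more than one gene, were left out. Intronic counts were not analysed here. The labels give poly(A) RNA as the molecule.

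From these counts, CPM were computed with library totals over 28265 genes. The 3 comparisons between young, ICM_3days and ICM_6days were fitted in 4 libraries each with edgeR (version 4.0.16, R 4.3.3; TMM, filterByExpr at a minimum of 10 counts, quasi-likelihood test, Benjamini-Hochberg), with standard errors taken from the F statistic, after a test on simulated data. The alternatives were DESeq2 (version 1.42.0), other scalings and filters, all 8 libraries in one fit, a replicate block, an adjusted p of 0.01 and each library left out. Tables and figures were made with Python 3.11.15, numpy 2.4.6, pandas 2.3.3 and matplotlib 3.10.9.

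The members and gene lists were chosen with earlier results of these data known. Named in any case were the 12 members with the largest margin, the 6 with the highest mean, the 5 on either side of the threshold, up to 3 called in each direction and comparison, and those on the lists. The functional groups, the other named members and the counts of genes inside other genes were added after the values were seen. Gene types and 72 promoters came from RefSeq tables (GRCh38.p14), matched by symbol, with 108 members found for types. Positions are on GRCh37. The values of 1 member are not reported here, though the counts include it.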

Additional observations from a re-analysis of the deposited data

How the results depend on the processing

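The number of members moved most with its thresholds, from 111 to 331 with the smallest margin allowed set lower by 0.25 and to 29 at a margin of 2. Leaving out single libraries, it ran from 114 to 193, with 180 without young replicate 1 and 193 without MetaICM replicate 1, since the rule then has fewer values to meet. TMM scaling gave 110 members, 104 of them shared with the 111. At an adjusted p under 0.01, 2 members in place of 4 were lower after 3 days. Calls of higher members were lost there too, among them those of PTGS2 and NR4A3 at both times and of GPC5 after 6 days. With a library left out, members lower after 3 days numbered 2 to 6 (2 without ICM_3days replicate 1), members lower after 6 days 4 to 14 (4 without ICM_6days replicate 1 and 14 without young replicate 1) and members lower after 6 than after 3 days 15 to 29 (29 without ICM_3days replicate 1). The cause of these shifts was not tested. Replicate numbers are shared between groups, but no label says that they pair libraries. With the replicate number as a block, 38 members were higher and 6 lower after 3 days, 31 and 9 after 6 days, and 7 and 19 from 3 to 6 days. Deviations of same-numbered libraries correlated at 0.27 between young and ICM_3days, 0.07 between young and ICM_6days and 0.14 between the ICM groups. Of 627 alternative values of 57 called log2 fold changes of named members, 591 kept direction and call, 36 kept the direction only and 0 reversed. These 57 belong only to the members named in any case, which were picked largely for a large margin, level or fold. The adjusted p of 0.01 is not among the alternatives counted here. With 2 libraries per group, a member with a few counts in MetaICM, such as GPC5 with 7 and 10, has a fold known only roughly.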
